A study of Rattus norvegicus with 24 samples.

Results

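The genes described here encode the complement and coagulation proteins that hepatocytes release into blood. They were taken from a list of 41 genes that was chosen with earlier results of these data known. Each gene was represented by its brightest probe set on average. Of the 41 genes, 34 had a probe set of their own among the 14217 named genes of the array. These were 9 clotting factors, 9 inhibitors and fibrinolysis genes and 16 complement genes. Kng1, C2 and Cfb lay only on probe sets shared by several genes and were given no value, and F7, F11, F13b and Proz were on no named probe set.

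RNA was measured in primary rat hepatocytes in collagen sandwich culture, a format in which cells lie between layers of matrix and keep liver functions for longer. The cells received 1 of 4 piperazine designer drugs for 24 h, each at its EC20, the concentration with a 20 percent effect. The treated groups were BZP (benzylpiperazine) at 625 µM, TFMPP (trifluoromethylphenylpiperazine) at 35 µM, MeOPP (methoxyphenylpiperazine) at 522 µM and MDBP (methylenedioxybenzylpiperazine) at 467 µM, with 3 samples each. Each treated sample had its own named control with 0.1 percent DMSO, the solvent, which gave 12 controls and 12 pairs in 24 samples. No strain, sex or age is used here, and nothing in the labels ties the samples to different animals or culture dishes. The p-values therefore reflect only the spread of the paired changes among pairs of the same drug, and that spread may be technical.

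Blood clotting runs through a chain of proteases that ends in thrombin, which turns fibrinogen into fibrin. Serpins and the protein C system hold the chain in check, and plasmin dissolves the clot. Complement is started by antibody (classical pathway), by sugars on microbes (lectin pathway) or on surfaces directly (alternative pathway). All routes meet at C3 and lead from C5 to the membrane attack complex. Hepatocytes are the main source of most of these proteins, and several clotting proteins need a vitamin K-dependent carboxylation before they work.

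Promoters are shown for the members with the deepest falls and the smallest changes among those that have an entry, so that the sequences can be read beside the values below. The sequences come from RefSeq on the GRCr8 assembly, run 5′ to 3′ on the gene's strand and hold 250 bases before and 50 after the annotated start. Capitals mark every match to the motifs named HNF1 (GTTAAT), HNF4 type (AAAGTCC), C/EBP type (TTNNGNAA) or STAT3 type (TTCNNNGAA), each read on both strands, and matches may overlap. HNF1, HNF4 and C/EBP are transcription factors of the liver, and STAT3 carries the interleukin-6 signal. Mbl2 lay at chr1:237430793-237431092 on the plus strand, Klkb1 at chr16:53690976-53691275 on the plus strand, Fga at chr2:170671919-170672218 on the plus strand and Fgb at chr2:170700826-170701125 on the minus strand.
Mbl2: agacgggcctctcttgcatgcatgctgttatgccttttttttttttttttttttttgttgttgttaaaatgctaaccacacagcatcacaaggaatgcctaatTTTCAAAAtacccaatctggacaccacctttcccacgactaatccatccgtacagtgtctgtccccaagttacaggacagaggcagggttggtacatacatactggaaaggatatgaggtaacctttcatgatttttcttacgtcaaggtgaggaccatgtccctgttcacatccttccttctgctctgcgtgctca
Klkb1: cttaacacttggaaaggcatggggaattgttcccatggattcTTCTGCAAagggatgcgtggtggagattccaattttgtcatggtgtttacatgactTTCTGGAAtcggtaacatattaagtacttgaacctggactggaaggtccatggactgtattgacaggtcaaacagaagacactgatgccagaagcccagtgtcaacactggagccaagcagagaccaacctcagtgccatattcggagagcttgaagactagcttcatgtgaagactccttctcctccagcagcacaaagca
Fga: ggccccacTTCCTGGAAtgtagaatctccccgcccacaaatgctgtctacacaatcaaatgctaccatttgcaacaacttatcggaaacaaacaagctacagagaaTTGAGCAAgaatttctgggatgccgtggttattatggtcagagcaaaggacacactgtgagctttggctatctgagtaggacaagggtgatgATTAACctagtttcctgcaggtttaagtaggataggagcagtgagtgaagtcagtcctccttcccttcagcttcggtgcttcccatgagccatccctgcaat
Fgb: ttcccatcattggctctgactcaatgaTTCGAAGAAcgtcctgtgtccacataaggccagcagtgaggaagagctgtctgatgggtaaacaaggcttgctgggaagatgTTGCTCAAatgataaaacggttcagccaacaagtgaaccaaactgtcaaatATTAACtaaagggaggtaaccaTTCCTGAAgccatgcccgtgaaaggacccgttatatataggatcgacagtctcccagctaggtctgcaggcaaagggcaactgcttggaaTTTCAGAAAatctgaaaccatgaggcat

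The Mbl2 window held 1 C/EBP type match and the Klkb1 window held 2. The fibrinogen windows held more kinds of match: Fga had 1 HNF1 match, 1 C/EBP type and 1 STAT3 type match, and Fgb had 1, 4 and 1 of the same kinds. The printed windows do not stand for all members. All of these kinds were also in the windows of C4bpb (change -0.98) and C8a (-0.55), and that of C6 (-0.15) held only C/EBP type matches. Whether the matches go with the size of the change was not tested. Of the 34 measured members, 26 had a promoter entry. An HNF1 match was present in 9 of these 26 (34.6%), against 7.45% of all 33469 promoters. The 33469 were all entries given, for any gene, and were not matched to the members, which had 1 window each. A C/EBP type match was present in 18 (69.2%), against 41.3% of all promoters, and a STAT3 type match in 6 (23.1%), against 8.87%. The HNF4 type letters were in 0 of the 26 windows and in 4.63% of all promoters. A match describes letters in a window and shows no binding.

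In the DMSO controls the members spanned a wide range of signal, but the level of a probe set cannot be set against that of another. Fgb, the fibrinogen beta chain, had 13.59 ± 0.12 on the log2 scale (SD, n = 12) and Fga, the alpha chain, had 13.21 ± 0.30. The highest value on any array was 14.1, so fibrinogen lay near the top of the scale. C6, a subunit of the membrane attack complex, had 5.75 ± 0.98, and Mbl1, a mannose-binding lectin, had 6.23 ± 0.65. The members varied more between controls than most genes did: their SD over the 12 DMSO arrays had a median of 0.553, against 0.205 over all genes and 0.259 over genes with a mean of at least 5. Pros1, the protein S gene, was the steadiest member (SD 0.127 at a level of 11.11) after Fgb, and C4bpb, the beta chain of C4b-binding protein, was the most variable (SD 1.17).

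The variation between controls followed sets of arrays. The 12 DMSO arrays fell into 5 sets by clustering, which was done after the data were seen, and the labels name no such batch. Arrays correlated at 0.9943 to 0.9971 within a set and at 0.9622 to 0.9919 between sets. Set 1 held the first control of every drug, set 2 the second controls of BZP, TFMPP and MeOPP, set 3 the third controls of BZP and MDBP, set 4 the third controls of TFMPP and MeOPP, and set 5 the second control of MDBP. Within a set the members' median SD was 0.129. Set means of C4bpb lay between 7.40 and 10.23, a 7.08-fold span, those of C6 between 4.96 and 7.71 (6.69-fold), and those of Mbl2 between 7.39 and 9.71 (5-fold). Of the 34 members, 19 were lowest in set 1 and 12 in set 4, while 19 were highest in set 3 and 11 in set 5. Because each treated array was compared with its own control, a level shared by the 2 arrays of a pair drops out of its change. The size of the change can still differ between sets.

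**Figure D1:**
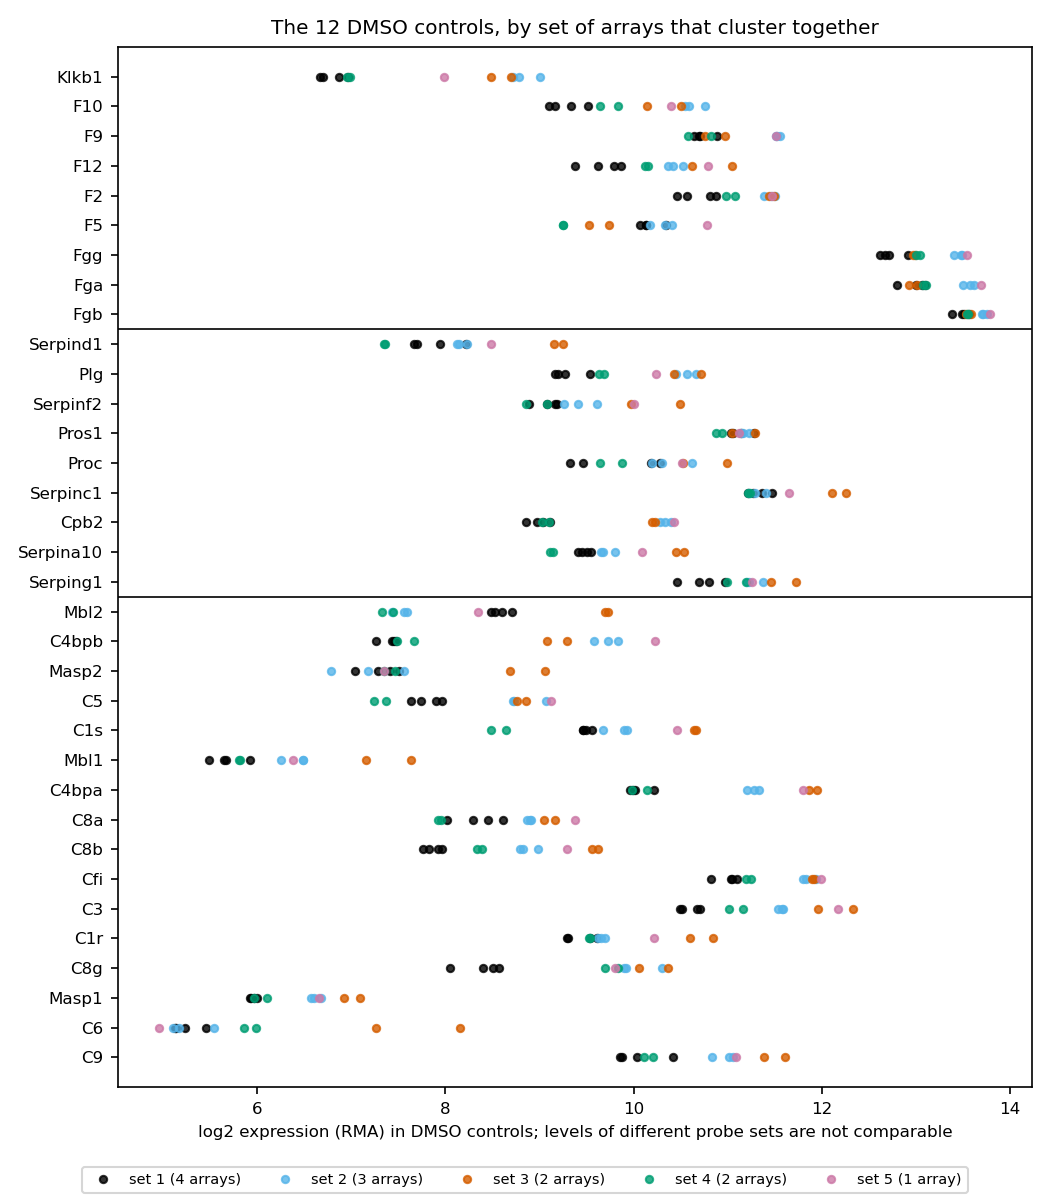
Values of the 34 members in the 12 DMSO controls (x axis, log2 expression), coloured by the set of arrays that cluster together, with members in rows by class. Points of the same colour lie close together for most members, and C4bpb and C6 are spread most, with set means 7.08-fold and 6.69-fold apart.

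Nearly all of the members were lower after the drugs than in the paired controls. In the mean of the 4 drugs, limma called 30 of 34 lower (88.2%) and 0 higher at an adjusted p under 0.05, against 11.9% of all genes lower and 18.0% higher. As the list was chosen with earlier results of these data known, this gap describes the members and is no independent test. The members' median change was -0.468 on the log2 scale, against 0.0116 over all genes. Of the 408 changes of a member in a pair, 381 were below 0. The change was below 0 in all 12 pairs for 21 of the 34 members and in 5.3% of all genes. Without the pair terms, which take up the differences in level between sets of arrays, 6 of the 34 were called lower in the mean (17.6%), against 3.61% of all genes. Fewer cells of a type and less RNA per cell cannot be told apart in such samples.

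Members were called lower in each band of signal that held any, in a split that was added after the values were seen. The band under 5 held 5609 genes and 0 members. Among genes with a mean of 5 to 8, 7 of 8 members were called lower, against 14.4% of 5318 genes. Between 8 and 10 it was 13 of 13 members, against 17.7% of 2400 genes. At 10 and above it was 10 of 13 members, against 23.6% of 890 genes. Of 24 genes with a mean of at least 13, 3 were called lower, and the deepest change among them was -0.24.

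**Figure D2:**
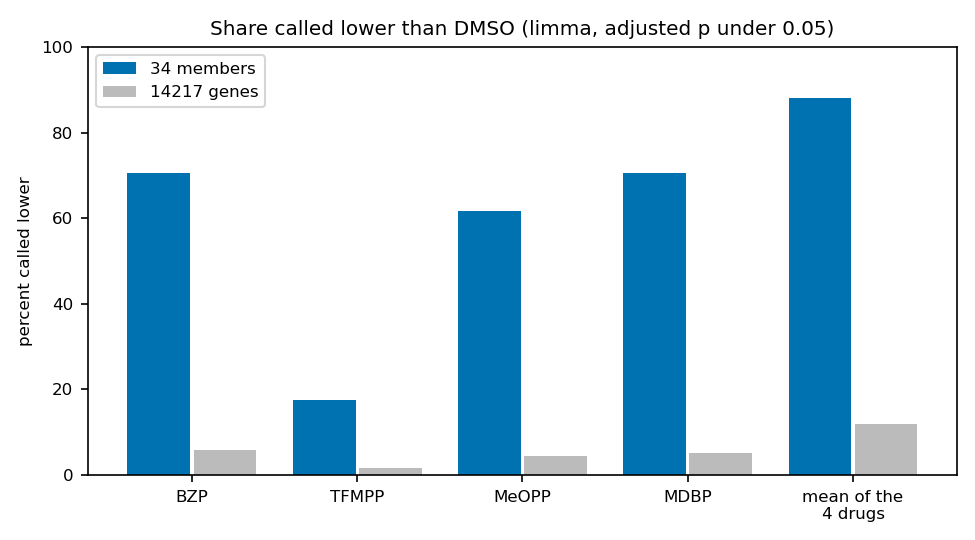
Percent of the 34 members (blue, left bar) and of 14217 genes (grey, right bar) called lower than paired DMSO by limma at an adjusted p under 0.05, for each drug and for the mean of the 4 drugs. The members' share was 88.2% in the mean and above the share of all genes with each drug.

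By drug, the counts of members called lower were 24 of 34 for BZP (70.6%), 24 for MDBP (70.6%), 21 for MeOPP (61.8%) and 6 for TFMPP (17.6%), and 0 were called higher for any drug. Over all genes BZP had 5.96% called lower and 6.66% higher, TFMPP 1.71% and 0.872%, MeOPP 4.52% and 3.45%, and MDBP 5.05% and 4.68%. The members' median change was -0.548 (BZP), -0.292 (TFMPP), -0.521 (MeOPP) and -0.573 (MDBP), while the medians over all genes lay between 0.0126 and 0.03. The counts by drug rest on few pairs. Without the second MDBP pair the MDBP count was 10. Without the first MeOPP pair the MeOPP count was 11, and without the second it was 10. For TFMPP the count was 0 without the first pair and 1 without the second or the third. With the arrays of the drug alone, BZP had 15.

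**Figure D3:**
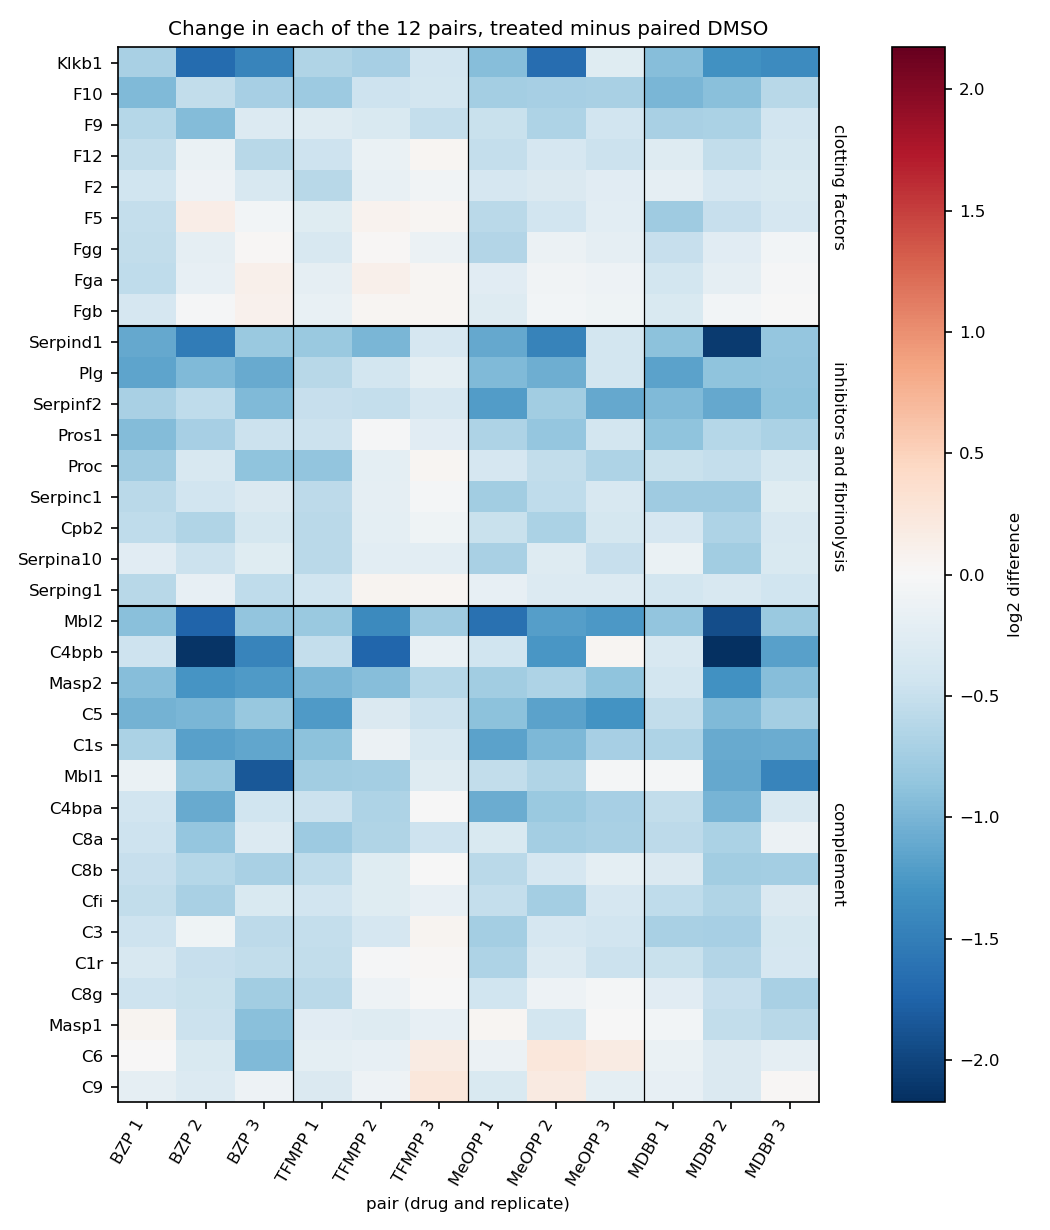
Change of each of the 34 members (rows, by class) in each of the 12 pairs (columns, by drug and replicate), as the log2 difference of treated minus paired DMSO, blue for lower and red for higher. Blue fills 381 of the 408 fields, and the fibrinogen chains, C6 and C9 are the palest rows.

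Among the clotting factors, 7 of 9 fell and 2 fibrinogen chains did not pass the test. The median of the class was -0.297, and its members lay between -1.01 and -0.10. Klkb1, plasma prekallikrein of the contact system, had the deepest fall of the class. Its values were 6.17, 7.11 and 7.26 with BZP, against 6.87, 8.78 and 8.70 in their DMSO controls. With TFMPP they were 6.02, 7.99 and 6.58, against 6.67, 8.72 and 6.99 in DMSO. With MeOPP they were 6.04, 7.35 and 6.70, against 6.97, 9.01 and 6.96 in DMSO, and with MDBP 5.78, 6.67 and 7.12, against 6.71, 7.99 and 8.49 in DMSO. The ranges of treated and control samples overlapped, but each treated sample was below its own control. The mean change was -1.01 ± 0.10 (SE, n = 12 pairs; 2.01-fold lower; limma adjusted p = 2.35e-06).

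F10, the factor that forms thrombin from prothrombin, was the deepest fall among the vitamin K-dependent clotting factors. It lay at 8.11 to 10.32 (median 9.37) in treated samples and at 9.10 to 10.76 (median 9.99) in DMSO samples. The groups overlapped, with all 12 pairs lower and a change of -0.71 ± 0.05 (1.63-fold lower; limma adjusted p = 1.13e-07). F10 was called lower with each of the 4 drugs, at -0.74 (BZP), -0.54 (TFMPP), -0.72 (MeOPP) and -0.83 (MDBP). F9, whose loss causes haemophilia B, changed by -0.53 ± 0.06 (adjusted p = 4.60e-06), and F2, prothrombin, by -0.30 ± 0.05 (adjusted p = 6.10e-04). F12, which starts the contact system, lay at 9.09 to 10.43 (median 10.11) in treated samples and 9.38 to 11.04 (median 10.26) in DMSO samples, and fell by 0.37 on the log2 scale (adjusted p = 1.29e-04). F5, the cofactor of factor X, was lower in 9 of 12 pairs at -0.29 ± 0.06 (adjusted p = 0.00303).

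The fibrinogen chains changed little on their brightest probe sets, which lay near the top of the scale, where a change can be compressed. Fgg, the gamma chain, was lower in 10 of 12 pairs at -0.24 ± 0.06 (1.18-fold; adjusted p = 0.0111). It had 12.02 to 13.43 (median 12.90) in treated samples and 12.62 to 13.54 (median 13.00) in DMSO samples, so the groups overlapped widely. Its call was lost with 1 value per set of DMSO arrays, at -0.21 and an adjusted p of 0.102. Fga had a change of -0.14 ± 0.06 (adjusted p = 0.108) and Fgb of -0.10 ± 0.05 (adjusted p = 0.197), and neither passed the test. A second, dimmer probe set of Fga gave -0.36 ± 0.06 (adjusted p = 2.07e-04), so the brightest probe set was the one with the smaller change.

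All 9 measured members of the inhibitors and fibrinolysis class fell, with a median of -0.50 and a range of -1.03 to -0.30. Serpind1, heparin cofactor II, which inhibits thrombin, had the deepest fall. It measured 7.11, 6.60 and 8.44 with BZP, against 8.22, 8.13 and 9.25 in DMSO. With MDBP it measured 6.78, 6.40 and 8.31, against 7.66, 8.49 and 9.16 in DMSO. With TFMPP it was 7.14, 7.24 and 6.99, against 7.95, 8.23 and 7.36 in DMSO, and with MeOPP 6.58, 6.69 and 6.95, against 7.70, 8.14 and 7.35 in DMSO. Within TFMPP and within MeOPP the treated and control values did not overlap. The mean change was -1.03 ± 0.11 (2.05-fold lower; limma adjusted p = 4.54e-06), with 12 of 12 pairs lower.

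Serpinf2, alpha-2-antiplasmin, which blocks plasmin, was called lower with all 4 drugs. It lay at 7.73 to 9.53 (median 8.61) in treated samples and at 8.85 to 10.49 (median 9.23) in DMSO samples. The change was -0.80 ± 0.05 (1.74-fold lower; limma adjusted p = 2.53e-08). Plg, the plasminogen gene, is the precursor of plasmin itself and fell by nearly the same amount, -0.81 ± 0.06 (1.75-fold lower; adjusted p = 8.92e-08). Its values were 8.39, 9.60 and 9.63 with BZP, against 9.54, 10.57 and 10.72 in DMSO, and 8.66, 10.27 and 9.48 with TFMPP, against 9.27, 10.66 and 9.69 in DMSO. With MeOPP they were 8.24, 9.38 and 9.23, against 9.20, 10.45 and 9.63 in DMSO, and with MDBP 8.00, 9.37 and 9.57, against 9.16, 10.24 and 10.43 in DMSO. Cpb2, a carboxypeptidase that slows fibrinolysis, changed by -0.45 ± 0.06 (adjusted p = 1.62e-05), so members for and against clot dissolution both fell.

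The protein C system fell as well in its measured members. Pros1, its cofactor, lay at 10.19 to 11.14 (median 10.52) in treated samples and at 10.87 to 11.29 (median 11.13) in DMSO samples. With BZP, MeOPP and MDBP the treated and control samples did not overlap, and with TFMPP they did. The change of Pros1 was -0.58 ± 0.06 (1.5-fold lower; limma adjusted p = 1.92e-06), and that of Proc, protein C, was -0.50 ± 0.07 (adjusted p = 6.61e-05). The other serpins fell less: Serpinc1 (antithrombin) by -0.47 ± 0.06, Serpina10 (the protein Z-dependent inhibitor) by -0.39 ± 0.06 and Serping1 (the C1 inhibitor, which also restrains the contact system) by -0.30 ± 0.05, with adjusted p between 3.91e-05 and 6.70e-04.

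**Figure D4:**
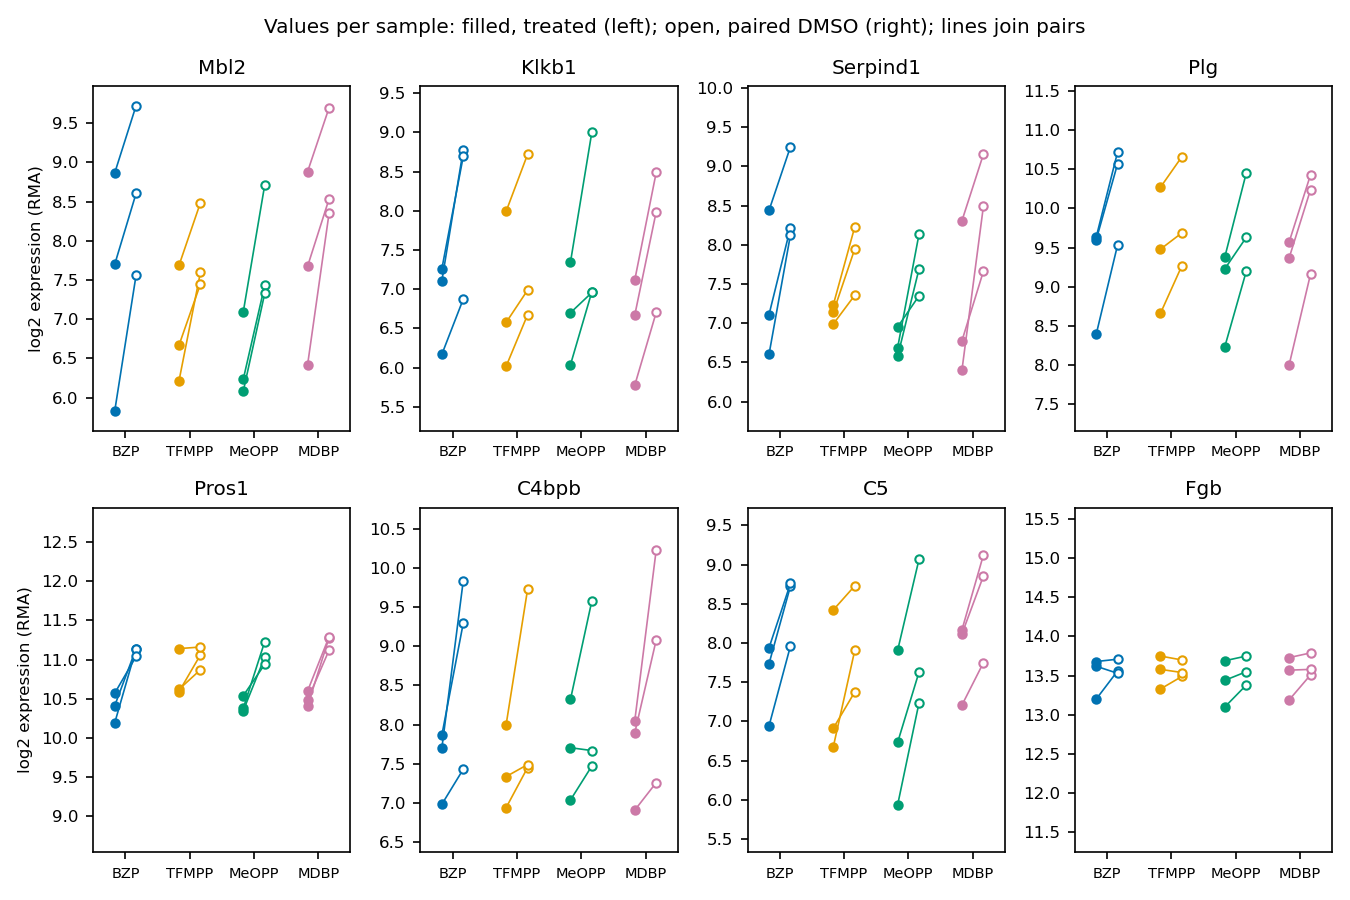
Values of 8 members in each sample (y axis, log2 expression; each panel spans the same range), with treated samples filled on the left and their DMSO controls open on the right, joined by pair and coloured by drug. Mbl2, Klkb1, Serpind1, Plg, Pros1 and C5 slope the same way in all 12 pairs, C4bpb does so in 11, and Fgb is nearly flat.

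In complement, 14 of 16 members fell, with a median of -0.512 and a range of -1.18 to -0.14. The lectin pathway held the deepest fall of all members. Mbl2, a mannose-binding lectin that recognises sugars on microbes, measured 7.70, 5.82 and 8.86 with BZP, against 8.61, 7.56 and 9.72 in DMSO. With TFMPP it measured 7.69, 6.21 and 6.67, against 8.49, 7.60 and 7.45 in DMSO. With MeOPP it was 7.10, 6.24 and 6.08, against 8.71, 7.43 and 7.33 in DMSO, and with MDBP 7.68, 6.42 and 8.88, against 8.53, 8.35 and 9.70 in DMSO. With MeOPP the treated values lay below all of their controls. The mean change was -1.18 ± 0.10 (2.26-fold lower; limma adjusted p = 3.82e-07), it was called with all 4 drugs, and a second probe set gave -0.59.

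Masp2, the protease that mannose-binding lectin activates, fell by 0.91 on the log2 scale (1.88-fold lower; limma adjusted p = 9.19e-08) and was called with all 4 drugs. It had 5.89 to 7.83 (median 6.56) in treated samples and 6.79 to 9.06 (median 7.38) in DMSO samples. One further probe set of Masp2 gave -1.19, and the other, dim one gave -0.14 and missed the call. C1s, a protease of the classical pathway, changed by -0.84 ± 0.07 (adjusted p = 3.65e-07) and its partner C1r by -0.40 ± 0.06 (adjusted p = 6.22e-05). Mbl1 changed by -0.70 ± 0.13 (adjusted p = 7.77e-04), and Masp1, the other lectin pathway protease, by -0.30 ± 0.07 (adjusted p = 0.00827). All 6 measured members of the classical and lectin pathways thus fell, with a median of -0.770.

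C3, where all routes meet, lay at 9.75 to 11.76 (median 11.22) in treated samples and at 10.49 to 12.33 (median 11.34) in DMSO samples. It was lower in 11 of 12 pairs, at -0.44 ± 0.06 (1.36-fold lower; limma adjusted p = 7.93e-05). C5, which starts the membrane attack complex, fell more, at -0.87 ± 0.07 (1.83-fold lower; adjusted p = 2.51e-07), and was called with all 4 drugs. It had 5.93 to 8.42 (median 7.47) in treated samples and 7.24 to 9.12 (median 8.34) in DMSO samples. The difference in size between C3 and C5 was not tested.

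The 3 chains of C8 fell, C8a by -0.55 ± 0.06 (adjusted p = 9.75e-06, called with all 4 drugs), C8b by -0.47 ± 0.06 and C8g by -0.37 ± 0.06. C6 and C9, the other measured parts of the attack complex, did not pass the test. C6 gave -0.15 ± 0.07 (adjusted p = 0.149) and C9 gave -0.14 ± 0.06 (adjusted p = 0.127), each with pairs on both sides of 0. C6 was dim, with a DMSO median of 5.35 against array medians of 4.454 to 4.524, so a fall had little room to show. Its brightest controls, 8.15 and 7.26 in the third BZP and MDBP pairs, went with changes of -0.96 and -0.19. With MeOPP the change of C6 was 0.10, the only change of a member by drug above 0.

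All 3 measured members listed as complement regulators fell. C4bpb was lower in 11 of 12 pairs at -0.98 ± 0.17 (1.97-fold lower; limma adjusted p = 5.28e-04). Its changes by pair ran from -2.18 to 0.04, and the pairs of sets 2, 3 and 5, where DMSO levels were above 9, had the deepest of them. C4bpa, the alpha chain, changed by -0.63 ± 0.08 (adjusted p = 1.65e-05), at 8.88 to 11.51 (median 10.08) in treated samples and 9.96 to 11.95 (median 10.71) in DMSO samples. Cfi, the protease that cuts C3b and C4b, changed by -0.46 ± 0.05 (adjusted p = 7.65e-06).

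**Figure D5:**
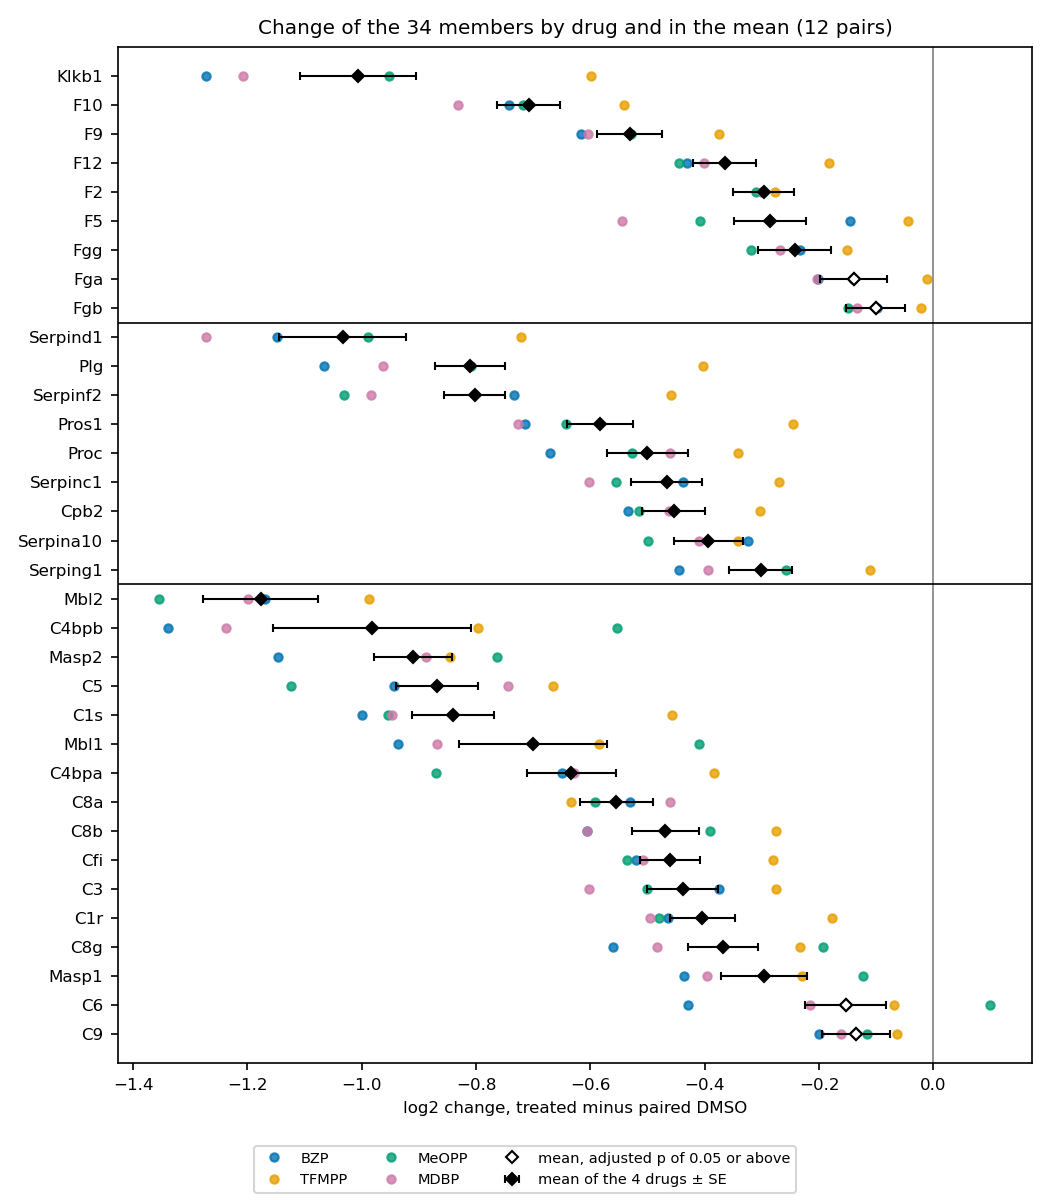
Change of each member in log2 units (x axis, treated minus paired DMSO), with 1 coloured point per drug and a black diamond with SE bars for the mean of the 4 drugs over 12 pairs, open where the adjusted p was 0.05 or above. The 4 open diamonds are Fga, Fgb, C6 and C9, and TFMPP is the point nearest to 0 for 27 of the 34 members.

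The classes were set side by side by their medians, with no test between them. The clotting factors had the smallest fall (median -0.297), the inhibitors and fibrinolysis genes -0.50 and complement -0.512. The clotting factors' median was above that of the inhibitors in 12 of 12 pairs and above that of complement in 10 of 12, while the inhibitors' median was above that of complement in 4 of 12. The fibrinogen chains, F5 and F2 had the 5 smallest changes of the clotting factors, at -0.30 to -0.10. Without the fibrinogen chains, whose probe sets lie near the top of the scale, the median of the other 6 clotting factors was -0.448, in a split chosen after seeing the data. That median was above the inhibitors' in 10 of 12 pairs and above complement's in 9. Over clotting factors and inhibitors together, the 5 vitamin K-dependent members had a median of -0.532, the 2 contact members -0.686, the 3 fibrinogen chains -0.140 and the 5 serpins -0.466.

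The class medians were below 0 in each of the 12 pairs. Over sets of arrays, clotting factors lay between -0.504 and -0.163, inhibitors between -0.752 and -0.312 and complement between -0.741 and -0.201, each with its smallest fall in set 4. Set 4 held the third pairs of TFMPP and MeOPP. By drug, the clotting factors' median was -0.301 (BZP), -0.183 (TFMPP), -0.408 (MeOPP) and -0.402 (MDBP). The inhibitors had -0.670, -0.342, -0.555 and -0.602 in the same order, and complement -0.584, -0.332, -0.519 and -0.604.

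The drugs differed in dose and, in part, in their sets of arrays, so these values stand side by side. A test of their difference compares treatments and not compounds at a matched dose. TFMPP, at 35 µM, gave the smallest change for 27 of 34 members, and BZP gave the deepest fall for 14, MeOPP for 10 and MDBP for 9. The smaller change with TFMPP was not seen in every set of arrays. In set 1 the members' median change was -0.54 with TFMPP, against -0.534 (BZP), -0.588 (MeOPP) and -0.49 (MDBP). In set 2 it was -0.241 with TFMPP, against -0.542 (BZP) and -0.608 (MeOPP). In set 4, which held no BZP or MDBP pair, it was -0.14 with TFMPP and -0.386 with MeOPP. The part of the sets in these differences was not tested. No difference between drugs was called for a member: limma called 0 of 204 tests, while 18 (8.82%) had an unadjusted p under 0.05, against 5.75% over all genes. At least 1 of the 6 differences was called for 0.0914% of all genes. The lowest adjusted p of a member was 0.353, for Plg in BZP minus TFMPP, at -0.66 (95% interval -1.03 to -0.30). For Serpinf2, TFMPP minus MeOPP was 0.57 (95% interval 0.25 to 0.89; adjusted p = 0.733). These intervals do not show that the treatments act alike. The members called with all 4 drugs were F10, Serpinf2, C5, C8a, Masp2 and Mbl2, 17.6% of the members against 1.42% of all genes. The members called lower with none of the drugs numbered 7 (20.6%), against 91.9% of all genes.

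Further genes of the same systems, some of them also plasma proteins of the liver, were read from separate lists against 11.9% lower and 18.0% higher over all genes. Of 20 measured further complement genes, 7 fell (35%) and 2 rose (10%), with a median of -0.0605. Colec11, a collectin of the lectin pathway, fell by 0.43 on the log2 scale (adjusted p = 2.74e-05), and C1qa, a C1q chain made mainly by macrophages, by 0.31 (adjusted p = 0.00427). Cr1l, a membrane regulator of complement in rodents, rose by 0.19 ± 0.05 (adjusted p = 0.00885) and C1qbp, a mitochondrial protein that can bind C1q, by 0.18 ± 0.05 (adjusted p = 0.00805). Of 27 measured further coagulation and fibrinolysis genes, 5 rose and 5 fell (18.5% each), with a median of -0.0108, which for rises is close to the share of all genes. In both lists some genes lay near the floor, such as Cd55 (2.51 in DMSO) and Serpinb2 (1.87), where a fall has little room to show. No member had a mean under 5, so these medians and those of the members are not alike in level. Hrg, a plasma glycoprotein that binds plasminogen and heparin, fell by 1.2 on the log2 scale (2.29-fold lower, adjusted p = 2.82e-06). F2r, a thrombin receptor, fell by 0.40 (adjusted p = 6.46e-04) from a low DMSO level of 4.77. Anxa2, a cell-surface docking protein for plasminogen, had 11.17 to 12.45 (median 12.19) in treated samples and 10.35 to 11.89 (median 11.14) in DMSO samples and rose by 0.99 ± 0.10 (1.98-fold; adjusted p = 1.48e-06). Gas6, a vitamin K-dependent ligand of TAM receptors, rose by 0.76 ± 0.09 (adjusted p = 1.31e-05).

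Genes that carboxylate and export clotting factors were read in the same way. Of 10 genes of the vitamin K cycle and of secretion, 5 fell (50%) and 2 rose (20%) in the mean, while Calu, Furin and Tpst2 were not called. By drug, 1 of the 10 was called lower for BZP and 1 for MDBP, 1 was called higher for TFMPP, and for MeOPP 3 were called lower and 1 higher. Over all genes, 1.71% to 5.96% were called lower by drug and 0.872% to 6.66% higher. Ggcx, the carboxylase, fell by 0.39 (adjusted p = 9.55e-05) and Vkorc1, the vitamin K epoxide reductase that warfarin blocks, by 0.43 (adjusted p = 3.67e-05). Nqo1, a quinone reductase and a known target of NRF2, rose by 0.56 ± 0.06 (adjusted p = 4.91e-06) and Vkorc1l1, the paralog of Vkorc1, by 0.17 ± 0.04 (adjusted p = 0.00828). Of 19 measured liver transcription factors and cytokine signalling genes, 7 fell (36.8%) and 5 rose (26.3%). Nr1h4, the bile acid receptor FXR, fell by 0.50 (adjusted p = 1.07e-06) and Foxa1, a pioneer factor, by 0.35 (adjusted p = 0.00130) from a low level. Hnf4a, the HNF4 alpha gene, fell by 0.23 (adjusted p = 0.00268) and Cebpb, the C/EBP beta gene, by 0.20 (adjusted p = 0.00360), and both were named after their values were seen. Cebpd, an acute-phase factor, rose by 0.31 ± 0.09 (adjusted p = 0.0189) and Onecut1, a hepatocyte factor, by 0.28 ± 0.09 (adjusted p = 0.0340), and both lost the call when single pairs were left out. With 1 value per set of DMSO arrays, Cr1l (adjusted p = 0.0671), Vkorc1l1 (0.0509), Cebpd (0.0605) and Onecut1 (0.221) were not called. Stat3, of the interleukin-6 response, was at 0.04 (adjusted p = 0.642) and was not called. Socs3, an inhibitor that the same response induces, was at 0.07 (adjusted p = 0.297), with a DMSO level of 3.71 that lies below the array medians and leaves little room to see a fall.

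Markers of the cell types a hepatocyte culture can hold were measured beside the members. Of 9 measured hepatocyte markers, 6 fell (66.7%) and 1 rose (11.1%), against 11.9% lower and 18.0% higher over all genes. Their median change was -0.233, with a range of -0.844 to 0.344. Asgr1, an asialoglycoprotein receptor chain, had the deepest fall of the 9, by 0.84 (adjusted p = 6.43e-08), and was called with all 4 drugs. It had 8.13 to 9.74 (median 8.96) in treated samples and 9.03 to 10.68 (median 9.74) in DMSO samples. Alb, the albumin gene, had 14.04 to 14.07 in treated samples and 14.06 to 14.10 in DMSO samples, at the top of the scale, so its value does not show whether it changed. The summed level of the 9 markers was 15.63 to 15.94 in treated samples and 15.80 to 16.00 in DMSO samples, and it was higher in treated samples in 0 of 12 pairs, with a median difference of -0.131. The sum is made up largely of Alb and of other probe sets above 13, which compresses it. Of 12 Kupffer cell and leukocyte markers, 8 fell (66.7%) and 1 rose (8.33%). C1qa, C1qb and C1qc were on this list and among the further complement genes, and all of them fell, so both counts hold them. The sum of the Kupffer cell and leukocyte markers was 10.56 to 11.59 in treated samples and 10.74 to 11.99 in DMSO samples (median difference -0.189). Endothelial, cholangiocyte and platelet markers had 0 calls of 8, 5 and 4 measured. Stellate cell markers had 1 in each direction of 10 (10% each), which is below the share of all genes in both directions. The sums in treated and in DMSO samples were 7.20 to 9.52 and 7.14 to 9.63 for endothelial markers, and 8.73 to 10.12 and 8.66 to 10.00 for stellate markers. They were 7.96 to 8.94 and 8.00 to 8.94 for cholangiocyte markers, and 6.55 to 7.09 and 6.61 to 7.24 for platelet markers. An array gives no true 0, so no marker can be called absent. The 3′ minus 5′ signal of 3 control transcripts, a sign of RNA quality, was 1.13 to 1.56 in treated samples and 1.12 to 1.55 in DMSO samples. The part of cell makeup and of RNA quality in the members' falls was not tested.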

How the data were processed

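Affymetrix rat arrays of 24 samples were used, made from 100 ng of RNA. The deposited values are log2 expression values from RMA, as the authors ran it per the submitters' processing notes, with its version not given in the sources used. They had array medians of 4.454 to 4.524 and were not normalized again. Of 31099 probe sets, 57 controls were left out and 31042 tested. The platform annotation gave 1 symbol for 20826, several for 436 and none for 9780. Arrays carry no read depth, and their number limits the precision.

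A single linear model (limma 3.58.1, R 4.3.3) held all arrays, with a term for each of the 12 pairs and each of the 4 drugs. Two-sided moderated tests were made for each drug, their mean and their 6 differences, with Benjamini-Hochberg adjustment across all tested probe sets. An adjusted p under 0.05 was called. Changes are treated minus paired DMSO in log2 units, with the standard error (SE). The pairs come from the control titles, and deviations of paired arrays correlated at 0.612 to 0.802 in all 12 pairs. No array duplicated another. The code was tested on simulated data. Figures used matplotlib 3.10.9 and Python 3.11.15.

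The members and lists were chosen with earlier results of these data known. Per role, up to 2 members called in each direction with the largest change were described in full, and up to 2 genes in each direction of each list of other genes were named. Alternatives left out pairs or the pair terms, joined the controls, used the arrays of 1 drug, repeated quantile normalization, left out dim probe sets, averaged probe sets and used 1 value per set of DMSO arrays.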

Additional observations from a re-analysis of the deposited data

How the results depend on the processing

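Directions were followed for the 17 members described in full and for the 16 genes named by rule from the other lists. Each of their changes in the mean of the drugs kept its direction under every alternative that gave a mean. Without the pair terms (no replicate block), limma called 6 members in the mean of the drugs, 1 each for BZP and MDBP and 0 each for TFMPP and MeOPP. Over all genes the counts in both directions were 1218 in the mean, 24 (BZP), 21 (MDBP), 9 (MeOPP) and 1 (TFMPP). Calls were thus lost across the whole array without the pairing, and 13 of the 17 members described in full were among those lost, with 10 of the 16 other named genes. The 6 were Pros1, C1s, Serpinf2, Serpind1, Masp2 and Mbl1. With the 12 DMSO arrays joined and no replicate block, the counts were 2 for MeOPP, 1 each for BZP and MDBP and 0 for TFMPP. With the arrays of the drug alone, BZP gave 15 and TFMPP 9. Leaving out 1 pair at a time gave 30 to 31 members in the mean. By drug the range was 16 to 23 (BZP), 0 to 1 (TFMPP), 10 to 15 (MeOPP) and 10 to 18 (MDBP). The lowest counts were without the third pair of BZP, the first of TFMPP and the second pairs of MeOPP and MDBP. The 6 differences between drugs gave 0 calls of a member in each setting. Repeating the quantile normalization, leaving out dim probe sets, averaging probe sets and using 1 value per set of DMSO arrays gave 29 to 31 members in the mean. With 3 pairs a drug, small changes by drug can be missed.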
